A study of Mus musculus with 14 samples.

Results

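None of the cell cycle and replication genes examined here changed past the threshold of the test with radiation or Atm deficiency, in any of 8 comparisons. The RNA was labelled as mouse lymph node and also carried salivary gland and skeletal muscle transcripts. The genes are 43 named members, of which 19 act in G2 and mitosis and 24 at the G1/S transition or in DNA replication. They were chosen by symbol, as the probe sets that the array's annotation gives to each gene alone. Of the 43, 40 were on the array (17 of the mitosis and G2/M genes and 23 of the G1/S and replication genes), out of 8252 genes with a probe set of their own. Of these, 35 were tested (14 and 21), out of 6541 genes tested in all. Ccnb1 and Bub1b had no probe set named to them alone, and Tyms had only 2, both shared with a pseudogene.

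RNA labelled as mouse lymph node was hybridised to 14 one-colour Affymetrix arrays, on which a gene is read by 1 or more probe sets. Wild-type samples (WT, Atm+/+) and samples without Atm (KO, Atm-/-), the kinase that responds to DNA double-strand breaks, each had 3 arrays without treatment, 2 taken 30 min after ionizing radiation and 2 taken 120 min after it. The sources used here do not give the dose, strain, age or number of animals per array. The replicates, lettered A to C, are not stated to be separate animals. The p-values thus measure the spread among these arrays alone, which may be technical.

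A dividing cell copies its DNA in S phase and separates the copies in mitosis. D cyclins and E cyclins drive the step from G1 into S by releasing E2F transcription factors, which raise the genes for the MCM helicase, the replication fork enzymes and nucleotide synthesis. The mitosis genes are transcribed later, in G2, and radiation is known to halt dividing lymphocytes at checkpoints before S phase and before mitosis.

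The promoters of the 4 members that the comparisons below turn on are shown as the 160 bases before the transcription start, 5′ to 3′ on the gene's own strand, from RefSeq on the GRCm38.p6 build. Capitals mark every match to 3 motifs searched on both strands. These were the CHR element (TTTGAA or TTCGAA), known from mitotic promoters as a binding site of the DREAM complex, the CCAAT box (CCAAT, or ATTGG on the other strand) bound by NF-Y, and an E2F type site (the word TTCCCGC, the word TTTGGCG or the word TTTCGCG).
Cdk1 (chr10:69352913-69353072, minus strand): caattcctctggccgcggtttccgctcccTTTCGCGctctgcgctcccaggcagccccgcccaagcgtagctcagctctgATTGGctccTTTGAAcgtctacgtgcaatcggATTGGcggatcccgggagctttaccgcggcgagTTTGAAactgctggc
Cdc20 (chr4:118437344-118437503, minus strand): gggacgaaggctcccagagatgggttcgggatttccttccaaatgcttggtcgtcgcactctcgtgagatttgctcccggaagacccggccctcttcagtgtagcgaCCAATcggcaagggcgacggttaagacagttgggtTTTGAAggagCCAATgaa
Prim1 (chr10:128015055-128015214, plus strand): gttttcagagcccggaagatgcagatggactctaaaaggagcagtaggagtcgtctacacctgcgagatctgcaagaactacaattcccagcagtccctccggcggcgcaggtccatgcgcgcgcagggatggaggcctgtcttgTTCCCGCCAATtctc
Rrm1 (chr7:102441535-102441694, plus strand): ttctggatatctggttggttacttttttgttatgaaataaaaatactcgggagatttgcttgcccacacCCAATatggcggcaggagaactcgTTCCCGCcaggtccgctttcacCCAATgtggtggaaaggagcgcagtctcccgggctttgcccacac

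In the Cdk1 stretch, CHR matches began at -71 and -15 from the start, CCAAT matches at -80 and -48, and an E2F type match at -131. Cdc20 held 1 CHR match at -18 between CCAAT matches at -53 and -8. Neither Prim1 nor Rrm1 held a CHR match in these bases. Prim1 had an E2F type match at -15 that shares 1 base with a CCAAT match at -9, and Rrm1 had an E2F type match at -67 between CCAAT matches at -91 and -45.

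The same search over windows from 250 bases before to 50 after the start separated the 2 sets by sequence. CHR matches stood in 12 of 15 windows of mitosis and G2/M genes (80%) and in 4 of 25 windows of G1/S and replication genes (16%), against 19.2% of all 32851 promoter windows. E2F type matches ran the other way, with 1 of 15 (6.67%), 11 of 25 (44%) and 6.72%. CCAAT matches stood in 13 of 15 (86.7%), 13 of 25 (52%) and 37.4%. The mitosis gene with the E2F type match was Cdk1. The G1/S and replication genes with a CHR match were Cdc45, Fen1, Mcm2 and Mcm7. The windows cover 15 and 20 genes, since Ccna2, Cdc25c, Aurkb, Kif20a, Mcm4, Ccne2, Ccnd1 and Ccnd2 were not in the table. A match is a run of letters and not a measured binding site.

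**Figure D1:**
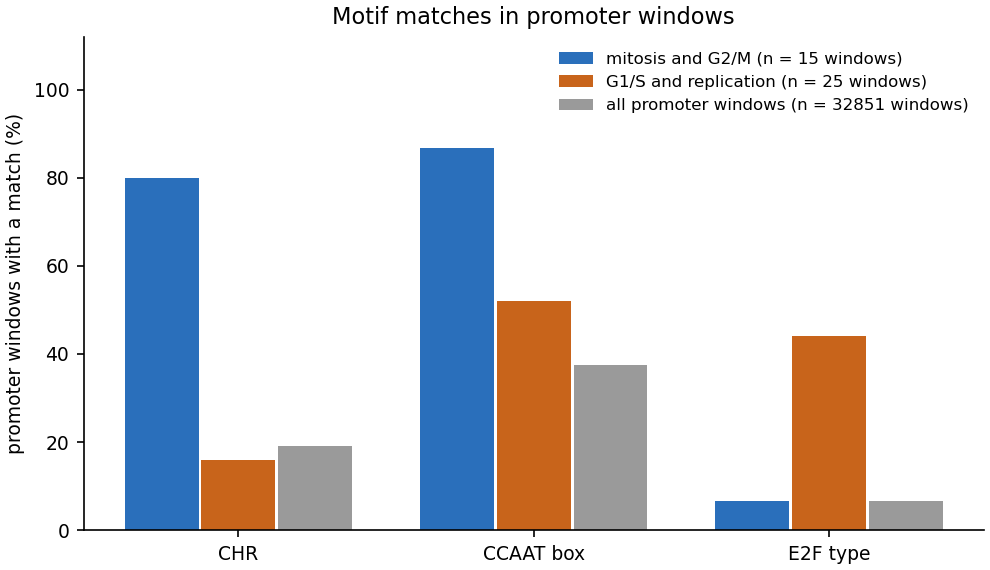
Share of promoter windows (vertical axis, percent) that hold each motif, for mitosis and G2/M genes (blue, 15 windows), G1/S and replication genes (orange, 25 windows) and all windows (grey, 32851). CHR matches are in 80% of the mitosis windows and 16% of the G1/S and replication windows, and E2F type matches in 6.67% and 44%.

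Several facts of the arrays bear on every value below. The targeted gene did not separate the genotypes: the Atm probe set read 5.5 to 55.9 on the 7 WT arrays and 7.5 to 44 on the 7 KO arrays, lay above its array's 40th percentile on 2 arrays, and had a KO minus WT log2 difference of -0.33 ± 0.22 averaged over conditions (limma, adjusted p = 0.866). Whether it lies in the deleted part is not given, so it does not check the labels. Of the markers of the labelled tissue, 9 to 12 of 13 B cell markers and 7 to 12 of 13 T cell markers lay above an array's 40th percentile, and the B cell markers summed to between 2688 and 6178 in deposited intensity. Markers of 2 other tissues did so too, 6 to 7 of 7 of salivary gland (summed, between 38982 and 67096) and 8 to 13 of 13 of skeletal muscle (between 1081 and 11898). The median correlation of an array with the others was lowest, at 0.928, for KO 30 min A, against 0.947 to 0.966 for the other 13. In RNA of a whole tissue, fewer dividing cells and less of a transcript per cell cannot be told apart.

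All changes were fitted with limma to log2(value + 32) after quantile normalization and are given ± the standard error, with p adjusted over 8938 probe sets. The added 32 understates the changes of weakly detected genes. A member with more than 1 tested probe set is represented by the one with the highest mean. Among all 8938 probe sets the share called at an adjusted p under 0.05 was 0.101% in WT at 30 min, 0.515% in WT at 120 min, and 0% in KO at 30 min, in KO at 120 min and in untreated KO against WT. For the mean genotype difference over the 3 conditions it was 0.168%, and for the KO response minus the WT response 0.0783% at 30 min and 0.134% at 120 min. The counts of 0 came from the limma fit, which gave 749, 645 and 490 probe sets at an unadjusted p under 0.05 in the 3 comparisons with none called. With shares this low, 0 of 35 members is what the background gives, and it is no sign that these genes differ from others.

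What the arrays could have shown is limited. The 95% confidence interval of a member's change reached a median of 0.56 to either side for radiation in 1 genotype, 0.50 for the untreated genotypes, 0.33 for the genotype average and 0.79 for the difference between responses. It stayed between -1 and 1 for 24 of the 35 members in WT at 30 min, 25 in WT at 120 min, 25 in KO at 30 min, 29 in KO at 120 min and 29 between untreated genotypes. In WT at 120 min, 6 members had intervals that reached a log2 change of -1 and 4 had intervals that reached 1. For the genotype average all 35 intervals stayed between -1 and 1.

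**Figure D2:**
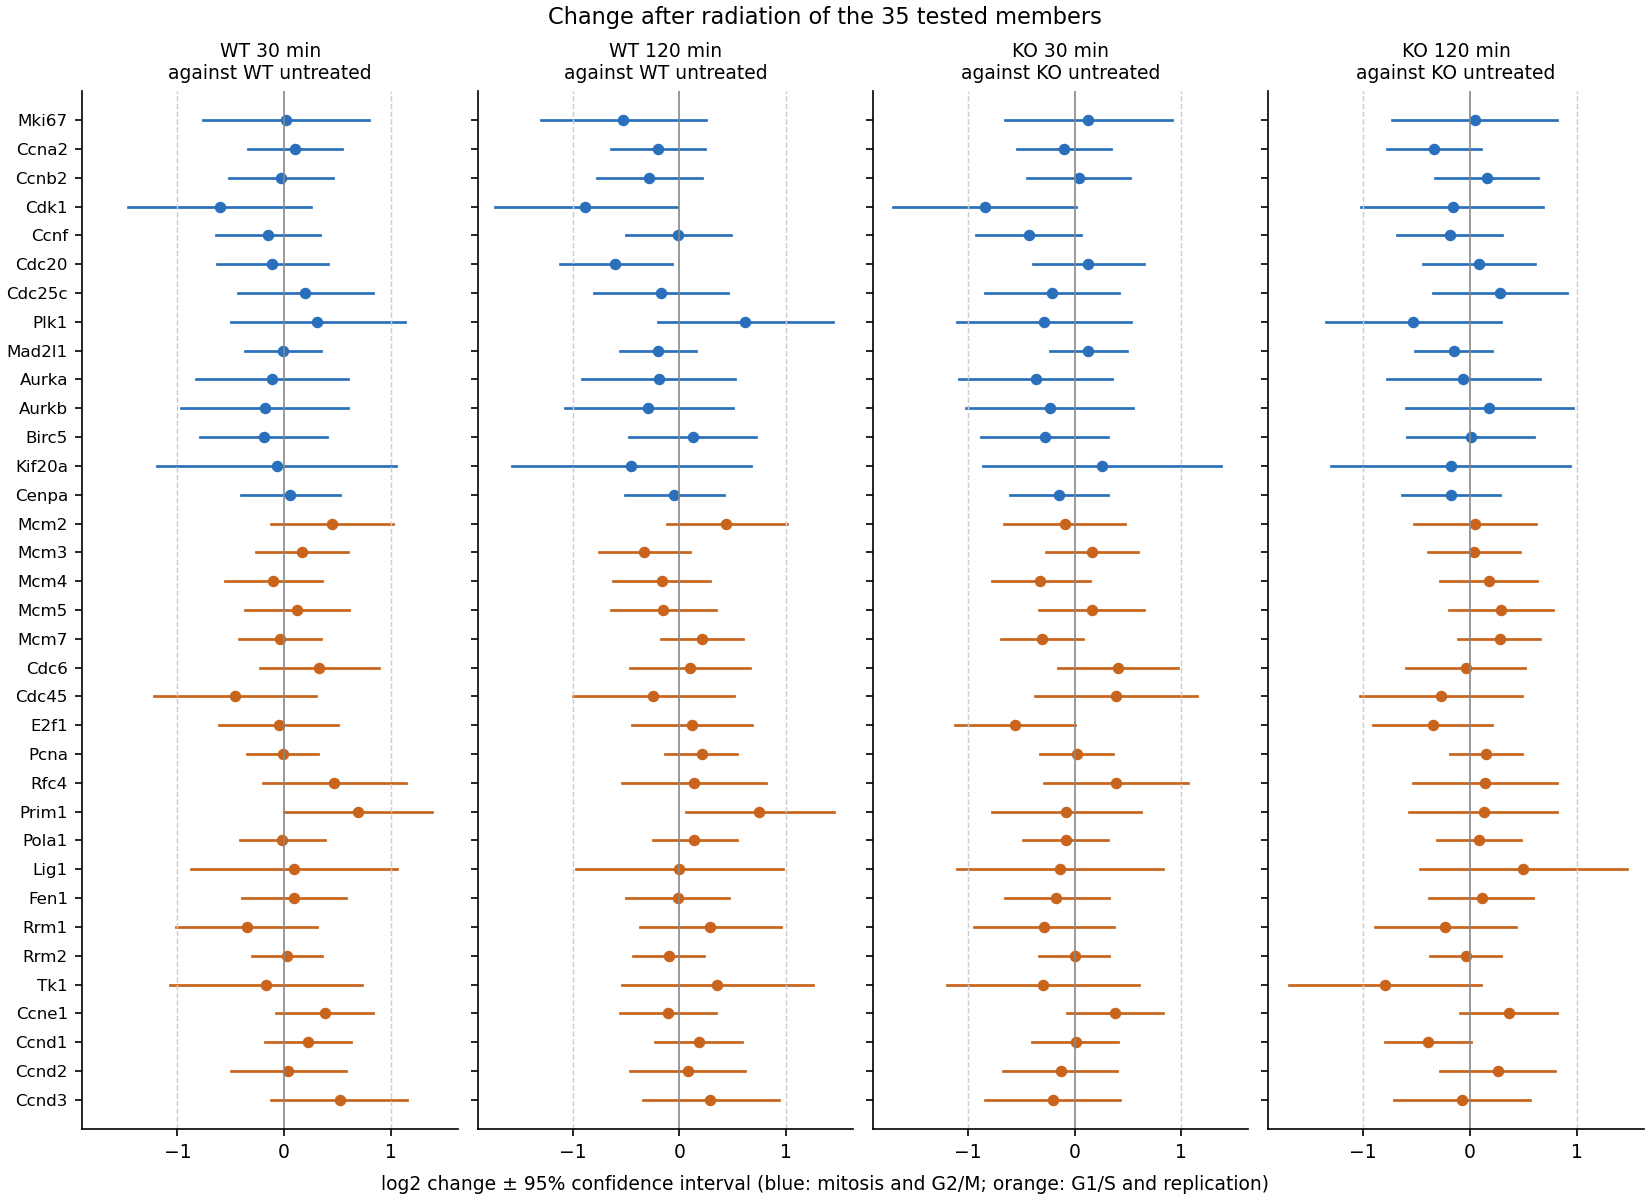
Log2 change after radiation (horizontal axis) of the 35 tested members in each genotype and time against the untreated arrays of the same genotype, points for the limma estimate and lines for the 95% confidence interval, blue for mitosis and G2/M and orange for G1/S and replication. Cdk1 lies farthest below 0 in WT at 120 min (-0.88), and most intervals cross 0.

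The median changes of both sets were small. In WT at 120 min the median change of the mitosis and G2/M members was -0.20, with 12 of 14 below 0, while that of the G1/S and replication members was 0.12, with 14 of 21 above 0. All probe sets had a median of 0.00 and 50.6% below 0. At 30 min in WT the medians were -0.05 and 0.09, in KO at 30 min -0.18 and -0.08, and in KO at 120 min -0.11 and 0.09. The G1/S median in WT at 120 min was 0.03 without quantile normalization, 0.11 with arrays centred on their medians and 0.00 with a filter at the 60th percentile, where the mitosis median was -0.26, -0.19 and -0.24. Between untreated genotypes the medians were 0.02 and 0.07. Leaving out 1 array gave the mitosis set in WT at 30 min medians from -0.20 (without 30 min A) to 0.17 (without 30 min B), and the G1/S set -0.07 to 0.24 for the same arrays. In KO the G1/S median was 0.06 without 30 min A at 30 min and -0.05 without 120 min A at 120 min.

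Each array was also described by the median of its members after each was centred on its own mean over the 14 arrays. The G1/S median minus the mitosis median was -0.12 ± 0.07 (SD, n = 3) in untreated WT, -0.03 ± 0.04 (n = 2) at 30 min and 0.13 ± 0.04 (n = 2) at 120 min. In KO it was -0.06 ± 0.11 (n = 3), 0.12 ± 0.05 (n = 2) and -0.03 ± 0.07 (n = 2). Both WT 120 min arrays (0.16 and 0.10) and both KO 30 min arrays (0.15 and 0.09) lay above every untreated array of their own genotype, and the KO 120 min arrays (-0.08 and 0.02) lay within the untreated KO range of -0.18 to 0.05. Whether these steps exceed those of other sets of genes was not tested. Each SD comes from 2 or 3 arrays, and the difference is a score over chosen members and was given no p. KO 30 min A (0.15) is also the array of lowest correlation with the others. In WT at 120 min 27 other replication genes had a median change of -0.17, with 21 below 0. That is on the side of the mitosis members (-0.20) and not of the G1/S and replication members (0.12). A single set's median had a within-group SD of 0.16 (mitosis) and 0.11 (G1/S).

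**Figure D3:**
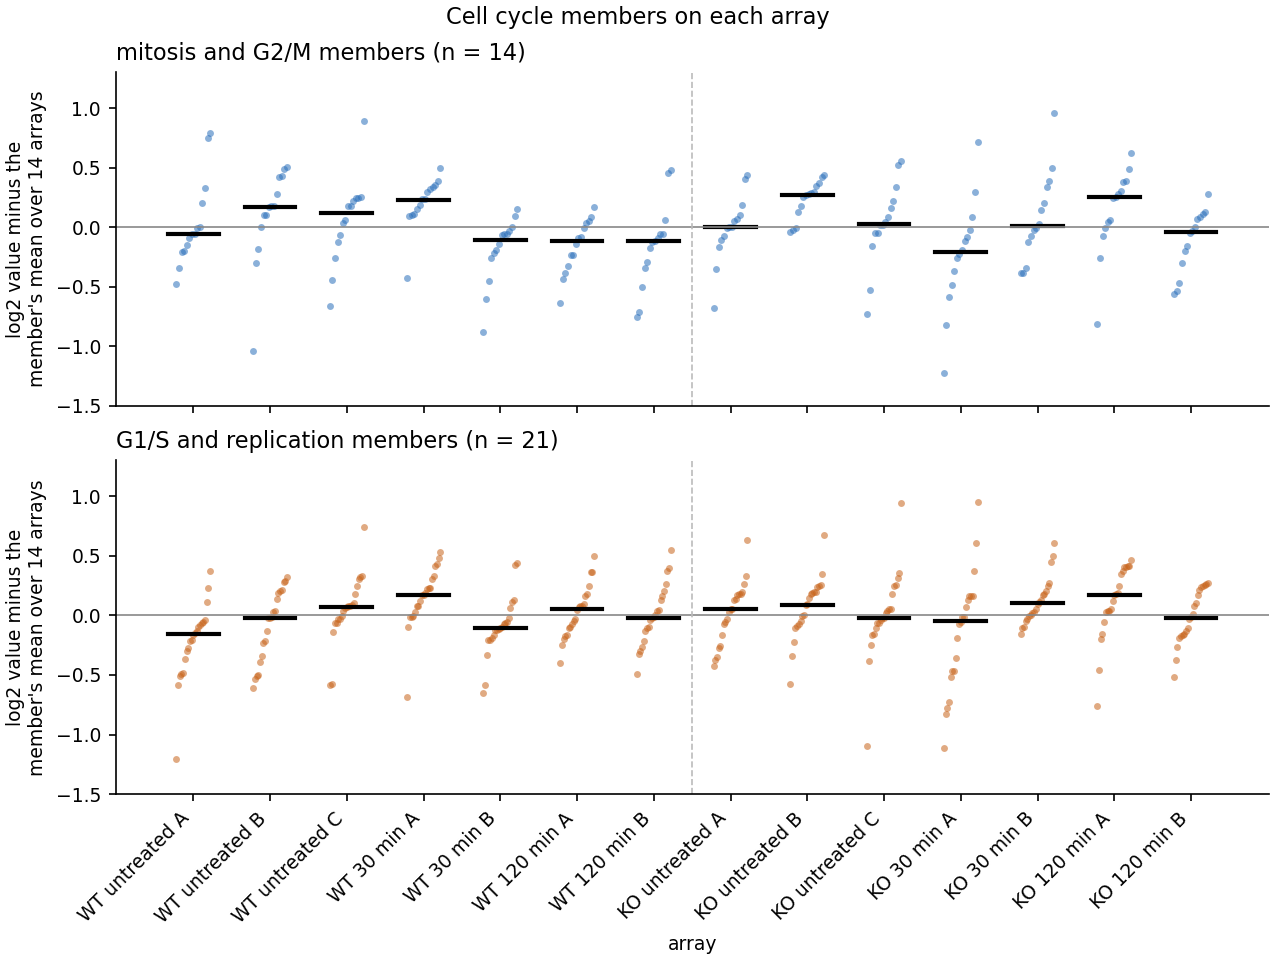
Each tested member's log2 value minus its own mean over the 14 arrays (vertical axis), by array (horizontal axis), for 14 mitosis and G2/M members (top) and 21 G1/S and replication members (bottom), with a bar at the array's median. The mitosis medians are -0.12 on both WT 120 min arrays, and those of single groups spread as widely as 0.23 and -0.11 on the 2 WT 30 min arrays.

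Few single members passed looser criteria, and the background shares of all probe sets are given beside them. At an unadjusted p under 0.05 these were Prim1 in WT at 30 min (background 5.02%), Cdc20, Cdk1 and Prim1 in WT at 120 min (8.66%), E2f1 in KO at 30 min (8.38%), none in KO at 120 min (7.22%), and Prim1 and Rrm1 between untreated genotypes (5.48%). By groups that did not overlap, Ccnd3 and Cdc6 were higher and Rrm1 lower in WT at 30 min, where 9.83% of all probe sets were higher and 9.88% lower. In WT at 120 min Pcna and Pola1 were higher and Cdc20, Cdk1 and Mcm3 lower (13.3% and 13.6%). For Pola1 this was a near tie, 6.348 on WT 120 min B against 6.338 on WT untreated C in normalized log2. Its deposited intensities overlapped, at 42.5 on WT 120 min A against 46.8 on WT untreated A. In KO at 30 min Mad2l1 was higher and Birc5, Ccnf, Cdk1, Cenpa and E2f1 lower (11.1% and 11.3%). In KO at 120 min Ccnd2, Ccne1 and Mcm7 were higher and Ccna2, Mad2l1, Ccnd1, E2f1 and Tk1 lower (13% and 13.7%). Untreated KO lay wholly above WT for Ccnd1 alone and wholly below for no member (5.56% and 5.09%). Of the 14 mitosis members 4 (28.6%) lay wholly below untreated KO in KO at 30 min, against 11.3% of all probe sets. This count rests in part on near ties of KO 30 min B with the lowest untreated KO array. On the normalized log2 scale they were 7.272 against 7.272 for Cdk1, 6.702 against 6.708 for Cenpa and 6.406 against 6.429 for Birc5. In deposited intensity Birc5 overlapped, at 54.9 on KO 30 min A against 53.5 on KO untreated C. KO 30 min A is also the array of lowest correlation with the others. In KO at 120 min 0 of the 35 members had an unadjusted p under 0.05 against 7.22%.

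The values of the members follow by role, as deposited intensities in the order of the replicate letters. The mitotic cyclins and their kinase come first. Cdk1, the kinase whose activation by cyclin B starts mitosis, read 125, 135.3 and 103.3 in untreated WT, 117.9 and 32.2 at 30 min, and 53.3 and 41.8 at 120 min. In KO it read 135.6, 132 and 122.5 untreated, 23.2 and 118.1 at 30 min, and 126.7 and 98.1 at 120 min. It was low on 4 arrays, both WT 120 min arrays and 1 array of each 30 min group, and between 98.1 and 135.6 on the other 10. The log2 change was -0.88 ± 0.39 in WT at 120 min (95% confidence interval -1.73 to -0.02, adjusted p = 0.561), -0.84 ± 0.39 in KO at 30 min (adjusted p = 0.592) and -0.16 ± 0.39 in KO at 120 min. Without KO 30 min B, which leaves KO 30 min A alone and assumes that it varies like the other groups, Cdk1 stood at -1.62 (adjusted p = 0.0381) and E2f1 at -1.04 (adjusted p = 0.0487) in KO at 30 min, the only calls of members in any fit run. Without KO 30 min A they stood at -0.06 and -0.09. The KO response minus the WT response of Cdk1 at 120 min was 0.71 ± 0.56 (adjusted p = 0.886).

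Ccnb2, a B-type cyclin that partners Cdk1, was well detected and steady, at 256.9 to 456.7 on the 14 arrays with changes from -0.28 ± 0.23 (WT at 120 min) to 0.16 ± 0.23 (KO at 120 min). Ccna2, the cyclin of S phase and G2, read 173.9, 216.3 and 153.6 in untreated WT, 228.5 and 161.5 at 30 min, and 136.5 and 163.9 at 120 min. Its KO values were 175.1, 214.2 and 174 untreated, 176.2 and 172.7 at 30 min, and 174 and 115.4 at 120 min. KO 120 min B was the lowest array, and the other KO 120 min array equalled the lowest untreated one. The change was -0.34 ± 0.20 (adjusted p = 0.765), and -0.11 without KO 120 min B. Ccnf, the F-box protein cyclin F, read 115.3, 72.3 and 95.1 in untreated WT, 60.7 and 97.8 at 30 min, and 90.6 and 86.8 at 120 min. KO arrays gave 135.8, 127.4 and 88.2 untreated, 82.6 and 77 at 30 min, and 116.4 and 80.6 at 120 min. Both KO 30 min arrays lay below untreated KO, by -0.43 ± 0.23 (adjusted p = 0.642).

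Regulators of mitotic entry and exit followed no common course. Cdc20, the activator of the anaphase-promoting complex, read 180.3, 302.5 and 209.9 in untreated WT, 221.6 and 190.3 at 30 min, and 114 and 159.5 at 120 min. It read 206.5, 196.9 and 211.3 in untreated KO, 177.4 and 305 at 30 min, and 244.7 and 193.1 at 120 min. Both WT 120 min arrays lay below all other arrays. The change in WT at 120 min was -0.60 ± 0.24 (95% confidence interval -1.12 to -0.07, adjusted p = 0.535), between -0.77 and -0.41 when any 1 array was left out, and 0.09 ± 0.24 in KO at 120 min. The difference between those responses was 0.68 ± 0.34 (adjusted p = 0.746).

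Cdc25c, the phosphatase that activates Cdk1, read 56.2, 82.5 and 82.4 in untreated WT, 96.9 and 75.2 at 30 min, and 52.9 and 59.6 at 120 min. In KO it read 82.1, 89 and 27.4 untreated, 40.6 and 59.9 at 30 min, and 98.6 and 65.8 at 120 min. KO untreated C, a low array, set the sign in KO at 120 min, where the change was 0.28 ± 0.29 (adjusted p = 0.88) with it and -0.04 without it. Plk1, the polo-like kinase of mitotic entry, had 3 tested probe sets that disagreed. The one with the highest mean read 130.1, 51.4 and 167.6 in untreated WT, 147.5 and 128.3 at 30 min, and 153 and 204.3 at 120 min. This probe set read 151.1, 154.2 and 217 in untreated KO, 182 and 96.3 at 30 min, and 65.7 and 170.7 at 120 min. Its low readings fell on 1 array of a group at a time (WT untreated B, KO 120 min A). Its change was 0.62 ± 0.38 in WT at 120 min (adjusted p = 0.705) and -0.53 ± 0.38 in KO at 120 min (adjusted p = 0.806), beside 0.00 to 0.15 and -0.18 to 0.12 for the other probe sets. Without KO 120 min A the second became 0.01, and without WT untreated B the WT change was 0.24 at 120 min and went from 0.31 to -0.06 at 30 min.

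The proliferation markers and the remaining mitosis members shared no pattern by group. In KO at 30 min Birc5 and Cenpa lay wholly below untreated KO and Mad2l1 wholly above it, and at 120 min Mad2l1 lay wholly below. Mki67, which encodes the Ki-67 antigen of cycling cells, read 189.7, 83.3 and 59.1 in untreated WT, 113.5 and 89 at 30 min, and 54.2 and 59 at 120 min. Its KO readings were 89, 134.8 and 82.2 untreated, 185.6 and 60.7 at 30 min, and 100.4 and 107.9 at 120 min. WT untreated A and KO 30 min A were highest, and on a second probe set the same arrays read 38.7 and 37.1, near the bottom of its range of 34.3 to 74.9. The change in WT at 120 min was -0.53 ± 0.36 by the first (adjusted p = 0.75) and -0.13 ± 0.25 by the second. Top2a, the topoisomerase that untangles sister chromatids, lay above its array's 40th percentile on 1 array (4 to 48.5 in all) and was not tested. Neither were Bub1, the spindle checkpoint kinase, with 3 probe sets between 1.2 and 50.1, and Kif11, the kinesin that spreads the spindle poles, at 7.2 to 45.

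Aurka, the spindle pole kinase, read 20.3, 62.7 and 39.4 in untreated WT, 41.2 and 21.1 at 30 min, and 23.6 and 28.3 at 120 min. In KO the values were 31.9, 52.8 and 45 untreated, 6.6 and 49.6 at 30 min, and 38.2 and 39.7 at 120 min. A single array, KO 30 min A, set its change in KO at 30 min, -0.36 ± 0.33 (adjusted p = 0.777) with it and 0.24 without it. Aurkb, the kinase of the chromosomal passenger complex, read 47.1, 55.2 and 105.7 in untreated WT, 63.6 and 41.8 at 30 min, and 22.2 and 72.5 at 120 min. KO values were 28.5, 63.7 and 20.5 untreated, 26.1 and 22.2 at 30 min, and 76 and 20.7 at 120 min. Arrays of 1 group differed by more than 3 times in WT at 120 min, in KO at 120 min and in untreated KO. Untreated KO minus WT was -0.56 ± 0.32 (adjusted p = 0.971), or -0.29 without WT untreated C. Birc5 (survivin, of the same complex) spanned 24.3 to 105, Mad2l1 (a spindle checkpoint protein) 65.1 to 113.2, Cenpa (the centromeric histone) 53.4 to 98.2 and Kif20a (a kinesin of cytokinesis) 5.4 to 82.6. Their changes after radiation lay between -0.45 and 0.26.

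**Figure D4:**
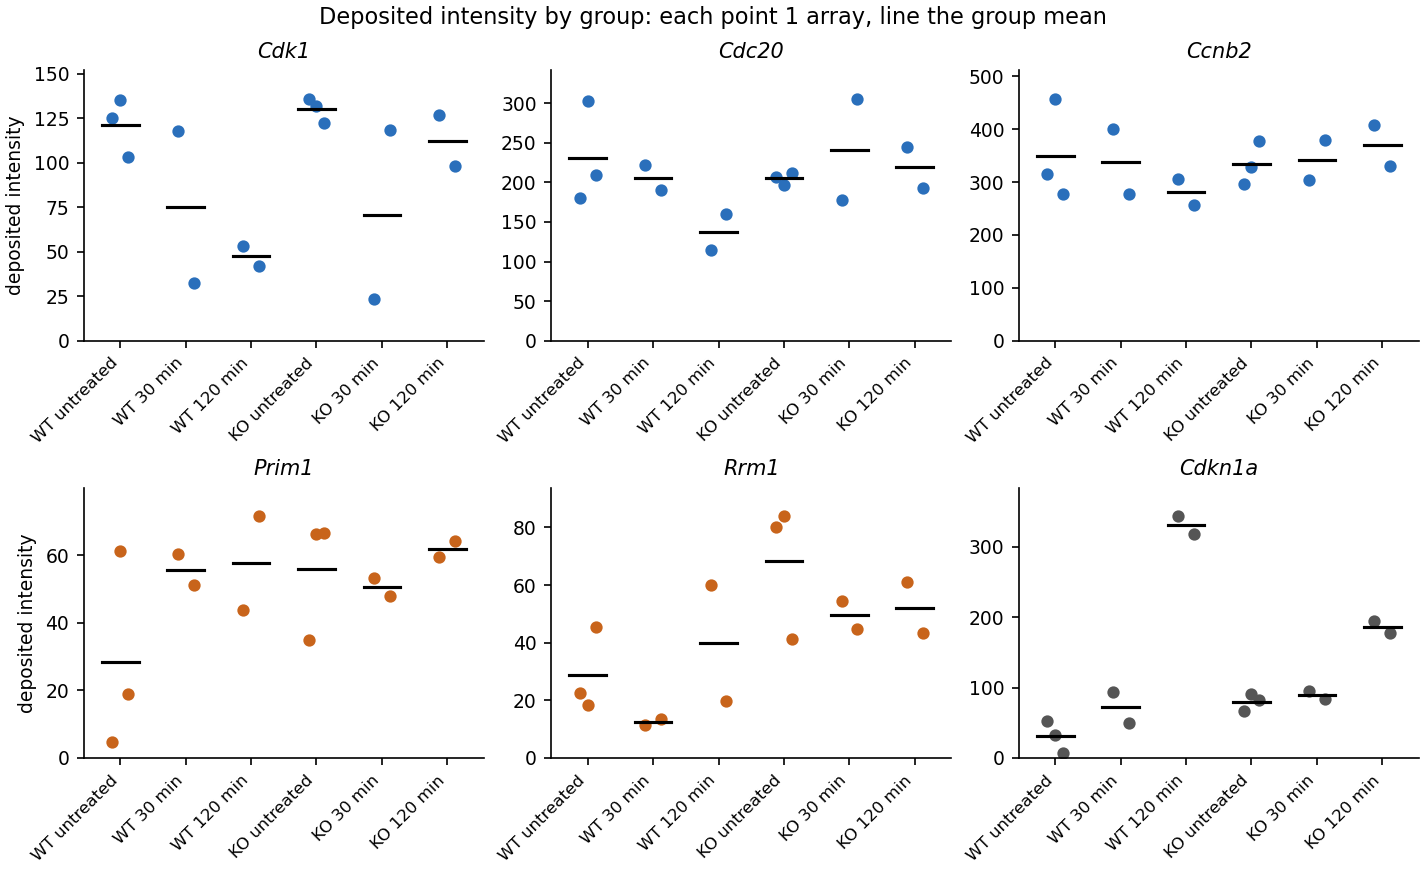
Deposited intensity (vertical axis) by group (horizontal axis) of Cdk1, Cdc20, Ccnb2, Prim1, Rrm1 and the CDK inhibitor gene Cdkn1a, each point 1 array and each line a group mean. Cdk1 is low on both WT 120 min arrays and on 1 array of each 30 min group, and Cdkn1a is at 342.9 and 318.1 in WT at 120 min against 7.1 to 52 untreated.

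Among the G1/S and replication members the MCM genes encode the hexameric helicase that opens replication origins. Mcm2 read 95.2, 183.7 and 89.5 in untreated WT, 199.3 and 144.1 at 30 min, and 187.6 and 151.9 at 120 min. It read 176.3, 128.9 and 207.5 in untreated KO, 141.8 and 175.7 at 30 min, and 161.1 and 186.4 at 120 min. WT untreated A and C were its lowest arrays, and 3 comparisons share them. Against untreated WT the difference was 0.45 ± 0.26 in WT at 30 min, 0.44 ± 0.26 in WT at 120 min (adjusted p = 0.98 and 0.694) and 0.42 ± 0.23 in untreated KO (adjusted p = 0.965). With 1 array left out, that in WT at 120 min ranged from 0.31 (without WT 120 min A) to 0.70 (without WT untreated B). That in untreated KO ranged from 0.29 (without WT untreated A) to 0.68 (without WT untreated B). Mcm5 read 305.4, 387.8 and 376.2 in untreated WT, 446.7 and 331.3 at 30 min, and 314.9 and 323.3 at 120 min. Its KO arrays gave 253.6, 368.2 and 334.4 untreated, 373.3 and 326.7 at 30 min, and 483.3 and 306.9 at 120 min. Its groups overlapped throughout, with changes of -0.15 ± 0.23 to 0.29 ± 0.23. A second Mcm5 probe set had the other sign in WT at 30 min (-0.40 against 0.12), KO at 30 min (-0.18 against 0.16) and KO at 120 min (-0.45 against 0.29). Mcm3 was at 92.1 and 94.6 in WT at 120 min against 116.8 to 160.9 untreated (-0.33 ± 0.20, adjusted p = 0.697). On a second Mcm3 probe set these groups overlapped, at 35.4 and 94.5 against 58.7 to 110.2 (-0.27 ± 0.32). The 2 probe sets had opposite signs in WT at 30 min, KO at 120 min, between untreated genotypes and in KO at 30 min (-0.62 against 0.16). Mcm7 was at 185.9 and 160.2 in KO at 120 min against 112.4 to 154.1 untreated (0.28 ± 0.18, adjusted p = 0.792). Mcm4 spanned 74.1 to 152.9. Mcm6 was not tested, since only KO 30 min A, at 121.6, exceeded the filter, the other arrays reading 2.7 to 38.3.

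Factors that load the helicase, and the E2F that controls them, lay near the threshold of the filter on many arrays. Cdc6, the loader of the MCM ring, read 30.1, 19.4 and 32.9 in untreated WT, 40.2 and 40.1 at 30 min, and 29.8 and 26.5 at 120 min. In KO it read 59.1, 42.9 and 31.7 untreated, 115.8 and 33.6 at 30 min, and 41.7 and 40 at 120 min. KO 30 min A stood alone, and the change in KO at 30 min was 0.41 ± 0.26 (adjusted p = 0.688) with it and -0.09 without it. Cdc45, which completes the active helicase, read 42.6, 82.5 and 117.9 in untreated WT, 70.9 and 24.2 at 30 min, and 56.4 and 53 at 120 min. It read 73.8, 32.3 and 76.2 in untreated KO, 73.9 and 102.2 at 30 min, and 36.1 and 48.7 at 120 min. Replicates differed as much as groups, and its change was -0.46 ± 0.35 in WT and 0.39 ± 0.35 in KO at 30 min, the latter 0.12 without KO 30 min B and 0.66 without KO 30 min A. E2f1, the transcription factor of the G1/S genes, read 47.4, 52.5 and 65.4 in untreated WT, 62.4 and 38.8 at 30 min, and 38.5 and 80 at 120 min. In KO it read 66.6, 67.5 and 68.5 untreated, 17.5 and 55.1 at 30 min, and 44.9 and 46.8 at 120 min. On this probe set all irradiated KO arrays lay below the untreated ones, by -0.56 ± 0.26 at 30 min (adjusted p = 0.592) and -0.35 ± 0.26 at 120 min (adjusted p = 0.812), which share their controls. A second E2f1 probe set, below the filter on every array, did not separate them. It read 5.2, 32.5 and 9.5 in untreated KO, 12.4 and 12.6 at 30 min, and 7.6 and 11.7 at 120 min.

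Of the replication fork genes, Pcna, the sliding clamp that holds polymerases on DNA, was the most evenly measured. It read 191.1, 210.8 and 212.3 in untreated WT, 212.1 and 190 at 30 min, and 246.1 and 236.7 at 120 min. KO values were 188.6, 202.1 and 223.3 untreated, 206.9 and 210.7 at 30 min, and 204.6 and 258.9 at 120 min. Both WT 120 min arrays exceeded the other WT arrays, by 0.21 ± 0.16 over untreated (95% confidence interval -0.13 to 0.54, adjusted p = 0.791), and the KO change at 120 min was 0.15 ± 0.16. Prim1, the primase subunit that starts each new strand, read 4.7, 61.3 and 19 in untreated WT, 60.3 and 51.1 at 30 min, and 43.7 and 71.4 at 120 min. It read 35, 66.1 and 66.4 in untreated KO, 53.2 and 47.9 at 30 min, and 59.4 and 64.1 at 120 min. Its low readings were WT untreated A and C, while WT untreated B was as high as the irradiated arrays. Against untreated WT it differed by 0.69 ± 0.32 at 30 min (adjusted p = 0.975), 0.75 ± 0.32 at 120 min (adjusted p = 0.551) and 0.63 ± 0.29 in untreated KO (adjusted p = 0.911), all from the same 3 controls. Without WT untreated A these differences were 0.35, 0.41 and 0.28.

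Rfc4, a subunit of the clamp loader, read 14.8, 7.4 and 38.9 in untreated WT, 26.1 and 45.3 at 30 min, and 9 and 35.4 at 120 min. Its KO values were 39.8, 26.1 and 13 untreated, 67.9 and 24 at 30 min, and 35.4 and 26.2 at 120 min. It exceeded the filter on 2 arrays, and its largest change was 0.47 ± 0.31 in WT at 30 min (adjusted p = 0.98), which was 0.24 without WT 30 min B, 0.76 without WT untreated C and 0.16 with a floor at 32 in place of the added 32. Lig1, the ligase that joins Okazaki fragments, read 82.4, 88.8 and 113.6 in untreated WT, 128.5 and 76.7 at 30 min, and 73.4 and 106.3 at 120 min. KO arrays gave 105.4, 122.5 and 24.1 untreated, 27.6 and 127.7 at 30 min, and 120 and 112.8 at 120 min. KO untreated C and KO 30 min A stood far below the rest, and a second probe set read 74.3 and 52 there, within its range of 41.3 to 75.3. The change in KO at 120 min was 0.50 ± 0.45 by the first (adjusted p = 0.854), 0.05 without KO untreated C, and 0.13 ± 0.19 by the second. Fen1 (the flap nuclease) spanned 49.2 to 104.1 and Pola1 (the catalytic subunit of polymerase alpha) 34.8 to 73.4, with changes after radiation of -0.17 to 0.14.

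Nucleotide supply held the members with the widest and the narrowest range over the arrays, 1.72 for Tk1 and 0.40 for Rrm2 on the log2 scale. Rrm1, the large subunit of ribonucleotide reductase, read 22.4, 18.3 and 45.4 in untreated WT, 11.6 and 13.6 at 30 min, and 59.9 and 19.8 at 120 min. In KO it read 80, 83.8 and 41.4 untreated, 54.6 and 44.8 at 30 min, and 61 and 43.2 at 120 min. Of the 7 WT arrays 5 lay below all KO arrays. KO minus WT was 0.74 ± 0.27 untreated (95% confidence interval 0.15 to 1.33, adjusted p = 0.854) and 0.59 ± 0.18 averaged over the 3 conditions (0.20 to 0.98, adjusted p = 0.456), the smallest p-value of any member in any comparison (unadjusted p = 0.00656). A second Rrm1 probe set, below the filter on every array, read 5.6 to 42.5 in WT and 8.2 to 30.8 in KO. Rrm2, the small subunit made in S phase, read 97.3, 104.9 and 89 in untreated WT, 103.6 and 88.7 at 30 min, and 72.1 and 94.4 at 120 min. It read 95, 117.7 and 98.9 in untreated KO, 106.1 and 102.8 at 30 min, and 102 and 95.4 at 120 min. Its within-group SD of 0.10 was the lowest of the 35 members, and its changes lay between -0.10 ± 0.15 and 0.03 ± 0.15. Tk1, the thymidine kinase of S phase, read 124.3, 60.1 and 112.8 in untreated WT, 102.1 and 58.4 at 30 min, and 114.1 and 140.3 at 120 min. KO values were 60.5, 82.7 and 194.5 untreated, 44 and 131.3 at 30 min, and 39 and 50.8 at 120 min. Both KO 120 min arrays lay below untreated KO, by -0.80 ± 0.42 (adjusted p = 0.736), or -0.41 without KO untreated C, and its second probe set gave -0.06 ± 0.31. In WT at 120 min its probe sets had opposite signs, 0.35 ± 0.42 (0.11 without WT untreated B) and -0.61 ± 0.31.

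The G1 cyclins bind Cdk2, Cdk4 or Cdk6 and inactivate the retinoblastoma protein. Ccne1 (cyclin E1) read 107, 155.2 and 108.5 in untreated WT, 197.6 and 139.3 at 30 min, and 110.1 and 104.2 at 120 min. It read 94.7, 95.1 and 122.1 in untreated KO, 179.9 and 111.5 at 30 min, and 129.5 and 150.1 at 120 min. One array of each 30 min group was highest, and the changes were 0.38 ± 0.21 in WT and 0.38 ± 0.21 in KO at 30 min, -0.11 ± 0.21 in WT and 0.37 ± 0.21 in KO at 120 min. Ccne2 (cyclin E2) read 5.7 to 34 and was not tested. Ccnd1 (cyclin D1) read 210, 147.4 and 234.6 in untreated WT, 264.2 and 197.6 at 30 min, and 228.1 and 218.2 at 120 min. In KO it read 245, 249.9 and 254.1 untreated, 249.7 and 254.9 at 30 min, and 189.2 and 175.9 at 120 min. Untreated and 30 min KO arrays lay close together and both KO 120 min arrays lay below them. The change in KO at 120 min was -0.39 ± 0.19 (adjusted p = 0.698), -0.08 ± 0.21 by a second probe set, and the KO minus WT response was -0.57 ± 0.26 (adjusted p = 0.706).

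Ccnd2 (cyclin D2, used by activated lymphocytes) read 49.1, 35.4 and 41.4 in untreated WT, 51.9 and 32.7 at 30 min, and 40.9 and 43 at 120 min. Its KO readings were 29.5, 48.7 and 34.8 untreated, 13.1 and 50.3 at 30 min, and 50.7 and 49.7 at 120 min. KO 30 min A was again the lowest, and the changes lay between -0.13 ± 0.25 and 0.26 ± 0.25. Ccnd3 (cyclin D3, prominent in lymphocytes) read 144.3, 163.8 and 231 in untreated WT, 233.9 and 291.6 at 30 min, and 286.2 and 172.3 at 120 min. KO values were 224.1, 253.8 and 208.4 untreated, 153.9 and 261.7 at 30 min, and 289.7 and 155.7 at 120 min. Both WT 30 min arrays exceeded untreated WT, by 0.52 ± 0.29 (adjusted p = 0.98).

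A few arrays carried many of the extremes. KO 30 min A was the lowest of the 14 arrays for 7 of 21 G1/S and replication members and 2 of 14 mitosis members, and the highest for 2 G1/S members. WT 30 min A was the highest for 4 G1/S and 3 mitosis members and the lowest for 1 of each. WT untreated B was the highest for 3 mitosis members and the lowest for 4 G1/S members and 1 mitosis member. The members varied somewhat more than the array as a whole, with a median within-group SD of 0.34 for mitosis and 0.29 for G1/S against 0.26 for all tested probe sets. Of the 35 tested members 18 lay above their array's 40th percentile on all 14 arrays, 8 of them mitosis and 10 G1/S genes.

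Other genes of the same machinery gave no call either, apart from 1 CDK inhibitor. Of 24 tested genes from a list of 44 other mitosis genes 0 were called in any comparison, and their median in WT at 120 min was -0.16, with 15 below 0 and 4 at an unadjusted p under 0.05, from Ube2c at -0.68 to Zwint at 0.86. Of 27 tested from 41 other replication genes 0 were called, with a median of -0.17, 21 below 0 and 1 at an unadjusted p under 0.05. In KO at 120 min the 2 lists had medians of -0.06 and 0.00. Among 6 tested Rb and E2F genes and 13 tested CDK and checkpoint genes 0 were called, with medians of -0.17 and 0.01 in WT at 120 min and 0 and 3 at an unadjusted p under 0.05. Of 5 tested CDK inhibitors Cdkn1a, which encodes p21, rose in WT at 120 min by 2.59 ± 0.26 (adjusted p = 0.00044), from 52, 32.3 and 7.1 to 342.9 and 318.1. In KO at 120 min it was at 194.1 and 177.5 against 67.2, 91.5 and 81.7 (0.99 ± 0.26, adjusted p = 0.487), and the difference between the responses was -1.61 ± 0.37 (adjusted p = 0.218). Its second probe set gave 1.02 ± 0.28 in WT at 120 min (adjusted p = 0.231) and 0.51 ± 0.28 in KO at 120 min. The difference between the responses was -0.51 ± 0.40 by that probe set. For untreated KO minus WT the 2 probe sets had opposite signs, 0.90 ± 0.23 by the first and -0.28 ± 0.25 by the second.

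**Figure D5:**
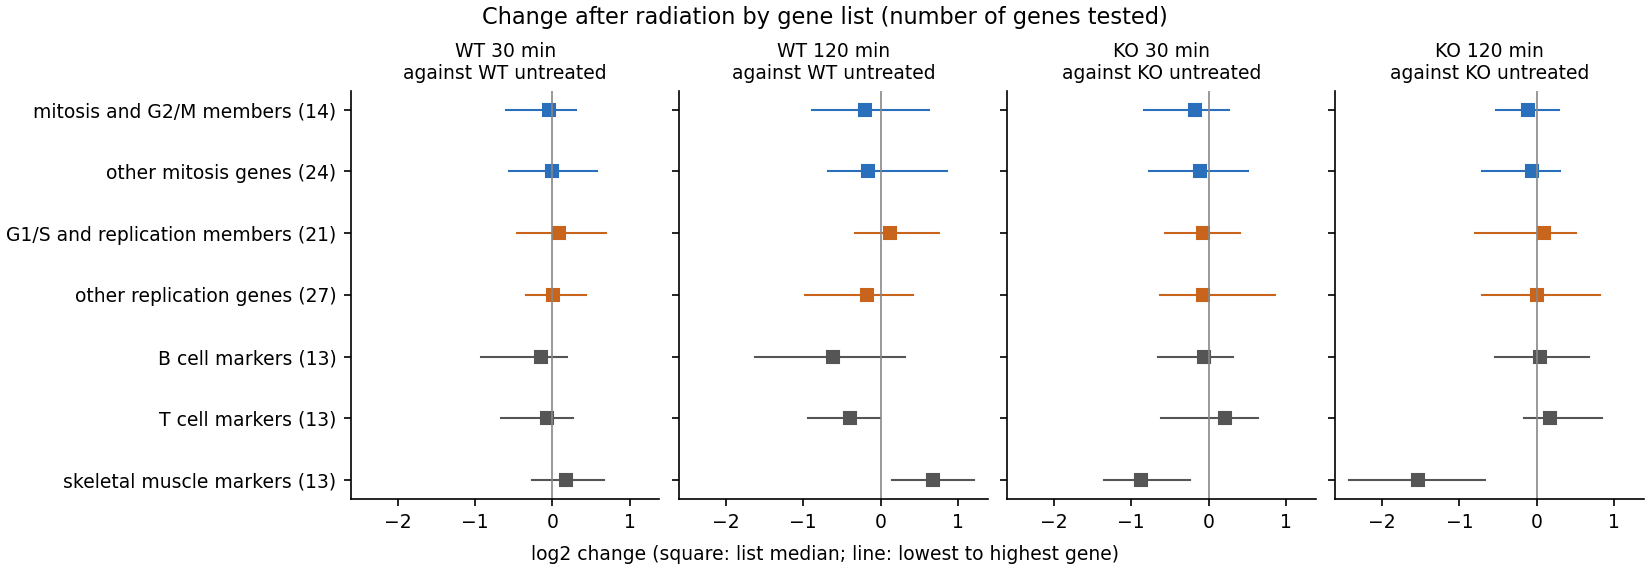
Log2 change after radiation (horizontal axis) by gene list, squares for the median of the tested genes and lines from the lowest to the highest gene, with the number tested in brackets. In WT at 120 min the medians are -0.20 for mitosis members, 0.12 for G1/S members, -0.62 for B cell markers and 0.68 for skeletal muscle markers.

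The medians of several cell type marker lists lay farther from 0 than those of the members. In WT at 120 min 12 of 13 B cell markers lay below 0 (median -0.62, Cd22 called, at a mean of 6.35 there against 91.7 untreated) and their summed intensity was 3548 to 3652 against 4973 to 6057 untreated. All 13 T cell markers lay below 0 there (median -0.39), with a sum of 810 to 832 against 1247 to 1317. Much of the B cell sum was Ighm, at a mean of 1950 in WT at 120 min and 2860 in untreated WT. Over the 3 conditions Ighm was called lower in KO by this probe set (-1.40 ± 0.20, limma, adjusted p = 0.00814). Its second probe set was called higher in KO (limma, adjusted p = 0.0211). Ighm averaged 1410 in untreated KO, which held the lowest B cell sum (2688). The B cell array medians there averaged 7.71, against 7.72 in untreated WT. In KO at 120 min the B and T cell medians were 0.04 and 0.17, and in KO at 30 min -0.06 and 0.21. Skeletal muscle markers had medians of 0.68 in WT at 120 min, -0.87 in KO at 30 min, -1.53 in KO at 120 min and 1.51 in untreated KO against WT, where 12 of 13 were at an unadjusted p under 0.05 and 0 were called. The muscle sum was 3804 to 11898 in untreated KO, 1081 to 3700 in KO at 120 min and 1466 to 3350 in untreated WT. Medians in WT at 120 min were 0.23 for 4 germinal centre B cell markers (lymphocytes that divide in the node) and -0.20 for 4 immature thymocyte markers. They were 0.06 for 7 salivary gland, -0.07 for 11 stromal and endothelial and -0.06 for 8 macrophage and neutrophil markers. Of the last list Cd14 was called in WT at 120 min, as higher, by 2.10 ± 0.24 (limma, adjusted p = 0.000869). No marker of any of these lists was at 0 on any array. The part of these shifts in the members' values was not tested.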

How the data were processed

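The 14 one-colour arrays were grouped by genotype and time from their titles. The authors deposited linear intensities, 1 for each probe set on each array. Which software made them is not stated in the sources used here, but the mean of each array without its highest and lowest 2% was 150.1, so the arrays had been scaled to 1 target. The number of arrays limits the precision.

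Here log2(value + 32) was quantile normalized. Of 12488 probe sets the 66 controls were left out, and 8938 that lay above their array's 40th percentile on at least 2 arrays were tested, with 6 group means in limma 3.58.1 (R 4.3.3) with 8 residual and 4.56 prior degrees of freedom. Calls were made at a p under 0.05 after Benjamini-Hochberg adjustment. The fit was tested on simulated data. Gene names came from the platform annotation: 10855 probe sets had 1 gene, 396 several (not named) and 1237 none, and 10839 were matched by Entrez ID. Promoter sequences are RefSeq's on GRCm38.p6, since the files name no build, and were read with Python 3.11.15.

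The members and gene lists were chosen with earlier results of these data known. Values are given on every array for the tested defining members and for the 3 members of each set with the largest change in each of 5 comparisons. Other members, with the untested Top2a, are given by range, and Cdkn1a as the called gene of the other lists. Alternatives changed the added value, the normalization, the filter, the probe set of a gene, the arrays in the fit, array weights and the replicate letter as a block. Letters were checked for pairing by the correlation of deviations from group means. Over 31 pairs of same-letter arrays of different groups it was -0.12 to 0.08. No pairing by letter was seen, though this does not exclude a shared animal or day.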

Additional observations from a re-analysis of the deposited data

How the results depend on the processing

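No member was called under any alternative except the 2 in KO at 30 min without KO 30 min B, where the count ranged from 0 to 2 when 1 array was left out (Cdk1 -1.62, adjusted p = 0.0381; E2f1 -1.04, adjusted p = 0.0487). Of the medians, that of the G1/S members in WT at 120 min was 0.00 with a filter at the 60th percentile. Without the 3 arrays of lowest correlation (KO 30 min A, WT untreated A, KO 120 min A) it was 0.06 in KO at 30 min and -0.05 in KO at 120 min. Leaving out 1 array gave the mitosis median -0.20 to 0.17 in WT and -0.25 to -0.02 in KO at 30 min, and the G1/S median -0.07 to 0.24 in WT and -0.15 to 0.06 in KO at 30 min and -0.05 to 0.19 in KO at 120 min. Single genes changed sign as follows, none of them called either way. With 1 array left out, Aurka in KO at 30 min ranged from -0.97 to 0.24 (without KO 30 min A), Cdc6 there from -0.09 (without KO 30 min A) to 0.90, Plk1 in KO at 120 min from -1.07 to 0.01 (without KO 120 min A), Plk1 in WT at 30 min from -0.06 (without WT untreated B) to 0.59, and Cdc25c in KO at 120 min from -0.04 (without KO untreated C) to 0.49. Without the 3 arrays named, Aurka was 0.24, Cdc6 -0.09 and Plk1 in KO at 120 min 0.01. With a floor at 32 in place of the added 32, Aurka was 0.01. With the replicate block Cdkn1a in KO at 30 min was -0.01, 0 members were called, the mitosis and G1/S medians in WT at 120 min were -0.25 and 0.17, and no other call changed. The rise of Cdkn1a in WT at 120 min was 2.32 to 2.82 when 1 array was left out, with an adjusted p of 0.000238 to 0.0176. The cause of these changes was not tested, beyond the smaller number of arrays.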
